A study of Rattus norvegicus with 10 samples.

Results

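Regulators of G protein signalling (RGS proteins) were followed through 5 regions of the rat brain, after cocaine and after saline. A probe set is a group of short oligonucleotides read together as 1 signal. The members were all probe sets whose only annotated symbol was Rgs2, Rgs4, Rgs8, Rgs9, Rgs12 or Rgs14. This gave 6 of the 8740 probe sets that were not controls, 2 for Rgs8 and 1 each for Rgs4, Rgs9, Rgs12 and Rgs14, or 5 of the 4737 genes that had a probe set of their own. For Rgs2, 0 probe sets carried its symbol alone, so the gene was not analysed here. All 6 lay among the 5244 probe sets that passed the filter on mean signal, and none had a zero or a value below the floor of 1028 on any array.

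RNA came from 5 rat brain regions: the caudate putamen and nucleus accumbens of the striatum, the prefrontal cortex, the amygdala and the ventral tegmental area. Each region had 1 array of rats given cocaine, an inhibitor of monoamine transporters that raises extracellular dopamine, and 1 array of rats given saline, 10 arrays in all. The sources used here give no strain, age, sex, dose, schedule, time of dissection or number of animals behind a sample. The values are dChip expression indices, a linear model-based signal of a probe set. A difference passed the test where its p-value in limma, adjusted by Benjamini-Hochberg over all tested probe sets, was under 0.05. Where a region has a mean ± SD (n = 2) below, the pair is its cocaine and its saline array, so the SD includes any difference between the treatments. The labels do not say whether different arrays hold RNA of different animals, and the p-values therefore cover the spread between arrays alone, which may be partly technical. With 1 array per treatment in a region, that spread also includes any cocaine difference particular to a region.

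RGS proteins bind the active, GTP-loaded alpha subunit of a heterotrimeric G protein and speed up the hydrolysis of its GTP, which shortens the signal of a receptor. They share the RGS domain and differ in what surrounds it. Rgs2, Rgs4 and Rgs8 are small proteins with little besides that domain. Rgs9 works as a complex with the G protein beta subunit Gnb5, and its brain form is known as a brake on dopamine and opioid receptor signalling in striatal neurons. Rgs12 and Rgs14 are larger scaffolds that also hold Ras-binding domains and a GoLoco motif, which binds inactive alpha subunits of the inhibitory family.

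Median signal lay between 2208 and 2310 on the arrays, and Pearson's r between the cocaine and saline arrays was lowest in the amygdala, at 0.940, and highest in the caudate putamen, at 0.992, over the log2 values of the tested probe sets. The cocaine array of the prefrontal cortex had 226 exact zeros, the most of any array. The region labels were checked against marker transcripts. The dopamine receptor Drd1 had an index of 10904 with cocaine and 11001 with saline in the caudate putamen, of 8166 and 8237 in the accumbens, but of 698 and 1081 in the prefrontal cortex. Th, the tyrosine hydroxylase that starts dopamine synthesis, stood at 7544 and 6363 in the ventral tegmental area and at 2884 or less on every other array. Of the other measured dopamine neuron markers, Aldh1a1, Ddc and Slc18a2 also had both ventral tegmental arrays above all others. Slc6a3, Ret and Nr4a2 did not, at 3268, 2314 and 3788 on the ventral tegmental saline array and 3756, 3340 and 5163 on the amygdala saline array. Olfm1, abundant in cortical neurons, stood at 18953 and 23234 in the prefrontal cortex and at 4170 and 4454 in the ventral tegmental area. Its amygdala values of 17272 and 15793 lay not far below those of the prefrontal cortex. Slc17a7, the vesicular glutamate transporter of cortical neurons, ran only from 1218 to 1690 over the 10 arrays and does not mark the prefrontal label.

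Promoter windows are shown for Rgs9 and Rgs4, because these were the members whose levels passed the test of a difference between regions. Each runs from 250 bases before to 50 bases after the annotated start of the gene in RefSeq, build GRCr8, on the minus strand, at chr10:94770338-94770637 for Rgs9 and chr13:84475835-84476134 for Rgs4, read 5′ to 3′. Capitals mark matches on either strand to the TATA box TATAAA, to the promoter element known by its letters CCAAT, or to the GC box, searched as GGGCGG.
Rgs9: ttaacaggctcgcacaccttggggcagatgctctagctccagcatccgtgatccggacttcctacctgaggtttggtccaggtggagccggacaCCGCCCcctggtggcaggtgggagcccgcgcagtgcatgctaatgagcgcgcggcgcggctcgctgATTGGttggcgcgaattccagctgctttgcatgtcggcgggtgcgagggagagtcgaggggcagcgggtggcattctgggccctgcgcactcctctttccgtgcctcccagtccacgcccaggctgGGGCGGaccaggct
Rgs4: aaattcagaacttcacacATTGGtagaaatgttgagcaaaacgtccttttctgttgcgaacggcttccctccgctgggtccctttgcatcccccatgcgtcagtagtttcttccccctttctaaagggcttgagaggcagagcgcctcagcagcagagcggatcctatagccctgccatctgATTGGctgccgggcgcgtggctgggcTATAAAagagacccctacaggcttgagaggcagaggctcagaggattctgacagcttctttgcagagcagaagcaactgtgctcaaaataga

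The windows differ in base composition, with 66.3% G and C in Rgs9 and 52.7% in Rgs4. TATAAA begins 42 bases before the start in Rgs4 and was not found in the window of Rgs9, and 14.2% of all 33469 rat promoter windows of this length hold it. CCAAT, read as ATTGG on the strand printed, occurs 2 times in Rgs4 and 1 time in Rgs9, against 37.5% of all windows with a match. GGGCGG occurs 2 times in Rgs9 and 0 times in Rgs4, against 33.1% of all windows. The cyclic AMP response element TGACGTCA, which 1.83% of all windows hold, was not found in the window of any of the 5 genes. None of the searched motifs overlaps another, and a match describes the letters of a window, not a site in use.

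Rgs9 had the widest region differences of the 6 probe sets. Its index was 13031 with cocaine and 13115 with saline in the caudate putamen, 6124 and 5965 in its ventral neighbour, the nucleus accumbens, and 4015 and 4581 in the amygdala. It was 2742 and 2617 in the ventral tegmental area and 2695 and 2087 in the prefrontal cortex. Both caudate arrays thus lay above all others, both accumbens arrays came next, and only the ventral tegmental and prefrontal arrays overlapped. The caudate putamen exceeded the mean of the other 4 regions 3.65-fold, with a log2 difference of 1.87 ± 0.11 (SE, limma adjusted p = 0.000128). In bulk tissue, fewer cells that express a gene and less RNA per cell cannot be told apart.

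The prefrontal cortex was 2.31-fold and the ventral tegmental area 1.99-fold below the mean of the other regions for Rgs9, with log2 differences of -1.21 ± 0.11 and -0.99 ± 0.11 (SE, limma adjusted p = 0.00112 and 0.000991). Between neighbours in the order of levels, the caudate putamen was 2.16-fold above the nucleus accumbens (limma adjusted p = 0.0187) and the amygdala 1.60-fold above the ventral tegmental area (limma adjusted p = 0.0250). The accumbens stood 1.41-fold above the amygdala and the ventral tegmental area 1.13-fold above the prefrontal cortex, and neither step passed the test (limma adjusted p = 0.347 and 0.563). The caudate putamen was 5.51-fold above the prefrontal cortex and 4.88-fold above the ventral tegmental area (limma adjusted p = 7.77e-05 and 8.26e-05). The accumbens was 2.55-fold above the prefrontal cortex and 2.26-fold above the ventral tegmental area (limma adjusted p = 0.00237 and 0.00268), and the amygdala was 3.05-fold below the caudate putamen (limma adjusted p = 0.00111). The overall region difference and the 3 regional differences of Rgs9 passed under every alternative in which they could be computed, with adjusted p up to 0.0145 for the overall test. The step from caudate to accumbens failed without any 1 of the 4 arrays of those regions, with limma adjusted p between 0.226 and 0.359, and at 0.122 without a filter and 0.0730 with exact zeros raised to the floor. Amygdala over ventral tegmental area was lost in 10 of 22 alternatives, with adjusted p up to 0.174 without the cocaine array of the ventral tegmental area, and accumbens over prefrontal cortex and over ventral tegmental area were each lost without either accumbens array, with adjusted p up to 0.0643.

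**Figure D1:**
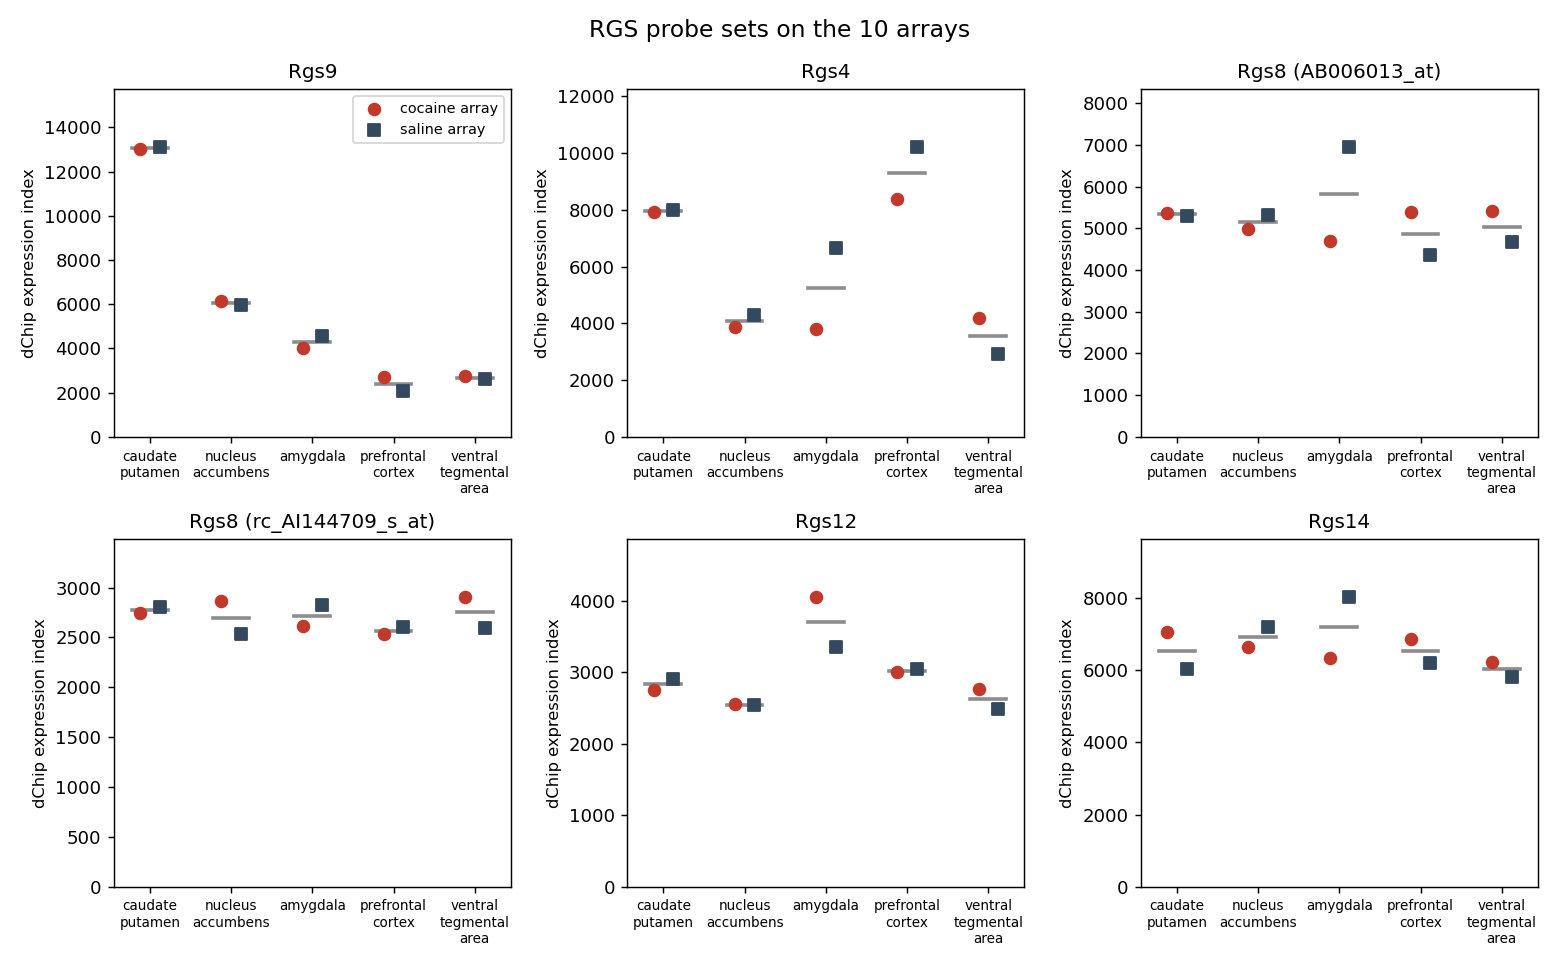
Expression index (dChip, linear scale from 0) of the 6 RGS probe sets by region, with the cocaine array as a red circle, the saline array as a dark square and their mean as a grey line. Rgs9 stands at 13031 and 13115 in the caudate putamen, Rgs4 is high in the caudate putamen and prefrontal cortex, and neighbouring regions overlap in the panels of Rgs8 and Rgs14.

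Of 9 measured markers of striatal projection neurons, 8 had both caudate arrays above all amygdala, prefrontal and ventral tegmental arrays, as Rgs9 had, and 7 had a higher mean in the caudate putamen than in the accumbens. The exception to the first was Pdyn, the prodynorphin gene, at 8489 with cocaine and 9053 with saline in the caudate putamen and 10191 and 8853 in the prefrontal cortex. Its probe set stayed between 8489 and 10191 on all arrays and did not pass the region test (limma adjusted p = 0.953). The sums that follow include this nearly even signal. The summed index of the 9 markers, of 12 listed, was 117577 with cocaine and 119275 with saline in the caudate putamen, 85620 and 88478 in the accumbens, and 53272 and 54869 in the amygdala. It was 29015 and 27786 in the prefrontal cortex and 35250 and 33697 in the ventral tegmental area, and none of the markers was at 0 on any array. Their part in the pattern of Rgs9 was not tested.

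Rgs4, abundant in cortical and other forebrain neurons and known as a regulator of receptors coupled to Gi and Gq proteins, followed another order. Its index was 8373 with cocaine and 10213 with saline in the prefrontal cortex, 7926 and 7985 in the caudate putamen, and 3815 and 6639 in the amygdala. It was 3878 and 4282 in the nucleus accumbens and 4175 and 2916 in the ventral tegmental area. The prefrontal and caudate arrays lay above all others, while amygdala, accumbens and ventral tegmental arrays overlapped. Set against the average of the other 4 regions, the prefrontal cortex was 1.89-fold higher, with a log2 difference of 0.92 ± 0.20, and the ventral tegmental area 1.79-fold lower, with -0.84 ± 0.20 (SE, limma adjusted p = 0.0426 and 0.0342).

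Of the pairs of regions, Rgs4 was 2.65-fold higher in the prefrontal cortex than in the ventral tegmental area (limma adjusted p = 0.0116) and 2.28-fold higher in the caudate putamen than in the ventral tegmental area (limma adjusted p = 0.0284). No step between neighbours in its order passed. The prefrontal cortex stood 1.16-fold above the caudate putamen (limma adjusted p = 0.736) and the caudate putamen 1.58-fold above the amygdala (limma adjusted p = 0.283). Within the striatum, the caudate mean of 7955 ± 41.5 and the accumbens mean of 4080 ± 286 (SD, n = 2 each) did not overlap, but the log2 difference of 0.97 ± 0.25 (SE) did not pass (limma adjusted p = 0.202). The overall region difference of Rgs4 passed at 0.0322 and was lost in 13 of 24 alternatives, with limma adjusted p of 0.231 without a filter on low signal and 0.0911 with exact zeros raised to the floor. It was also lost, at 0.0608 to 0.141, without any 1 array of the caudate putamen, nucleus accumbens or prefrontal cortex or the saline array of the ventral tegmental area. The prefrontal and ventral tegmental differences from the other regions were lost in 12 and 9 of 23 alternatives. Without its saline array the ventral tegmental difference was -0.42 (limma adjusted p = 0.416), and both pairs of regions that passed for Rgs4 were lost as well, at 0.0846 and 0.188. Caudate over ventral tegmental area was lost in 8 of 22 alternatives, with adjusted p up to 0.262 without the caudate cocaine array, and its log2 difference lay between 0.78 without the saline array and 1.60 without the cocaine array of the ventral tegmental area.

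Rgs8, a close relative of Rgs4 best known from cerebellar Purkinje cells, had no region preference that passed. The probe set AB006013_at had its lowest index at 4353 on the prefrontal saline array, a median of 5303 and its highest at 6950 on the amygdala saline array. The other, rc_AI144709_s_at, ran between 2530 and 2909 with a median of 2675, a spread of 1.15-fold. Cocaine and saline arrays of neighbouring regions overlapped throughout in both. The overall region test gave limma adjusted p = 0.934 and 0.965, and the order of regions differed between the probe sets, with the amygdala first in AB006013_at and the caudate putamen first in rc_AI144709_s_at.

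Rgs12, a scaffold with a PDZ domain in its long form, was highest in the amygdala. Its index was 4054 with cocaine and 3347 with saline there, 2998 and 3041 in the prefrontal cortex, and 2752 and 2909 in the caudate putamen. It was 2758 and 2490 in the ventral tegmental area and 2550 and 2535 in the nucleus accumbens. Both amygdala arrays lay above the other 8. The amygdala was 1.41-fold above the ventral tegmental area (log2 difference 0.49 ± 0.12, SE, limma adjusted p = 0.0468), which was lost in 16 of 22 alternatives, with adjusted p between 0.0132 and 0.280 over all of them. Against the mean of the other 4 regions the log2 difference was 0.42 ± 0.09 (SE) and did not pass (limma adjusted p = 0.118), nor did the overall region test (limma adjusted p = 0.0872). Without the saline array of the amygdala the overall test passed, at 0.0259.

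Rgs14, known in rodents as a marker of hippocampal area CA2 neurons and a limit on plasticity there, had no region difference that passed. Its index ran from 5811 on the saline array of the ventral tegmental area to 8036 on the saline array of the amygdala, with a median of 6489. Neighbouring regions overlapped in every step of its order, and the overall region test gave limma adjusted p = 0.849. The caudate putamen, at 6538 ± 727, and the prefrontal cortex, at 6533 ± 482 (SD, n = 2 each), differed by a log2 value of -0.00 with a 95% interval of -0.34 to 0.33.

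In total, 2 of the 6 RGS probe sets passed the overall region test, where 9.25% of all tested probe sets did. Against the mean of the other 4 regions, 5 of 30 values passed, 2 of them higher and 3 lower, where 4.27% passed over all probe sets and regions. Among single regions, 1.74% of all probe sets were called higher in the caudate putamen, as was Rgs9, and 1.36% higher in the prefrontal cortex, as was Rgs4. Of all probe sets, 3.69% were called lower in the prefrontal cortex, as was Rgs9, and 3.23% lower in the ventral tegmental area, as were Rgs9 and Rgs4. Over the 10 pairs of regions 10 of 60 values passed, 7 of Rgs9, 2 of Rgs4 and 1 of Rgs12, where 4.02% passed over all probe sets. For the 7 pairs in which Rgs9 passed, the share of all probe sets that passed in the same direction was 0.324% for caudate over accumbens, 2.83% for caudate over prefrontal cortex and 2.73% for caudate over ventral tegmental area. It was 1.07% for accumbens over prefrontal cortex, 2.25% for accumbens over ventral tegmental area, 2.37% for amygdala over ventral tegmental area and 1.51% for amygdala under caudate. For prefrontal cortex over ventral tegmental area, where Rgs4 passed, the share was 2.48%. The probe sets of Rgs8, Rgs9 and Rgs12 whose names end in s_at may, by the array maker's naming, also match related transcripts.

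**Figure D2:**
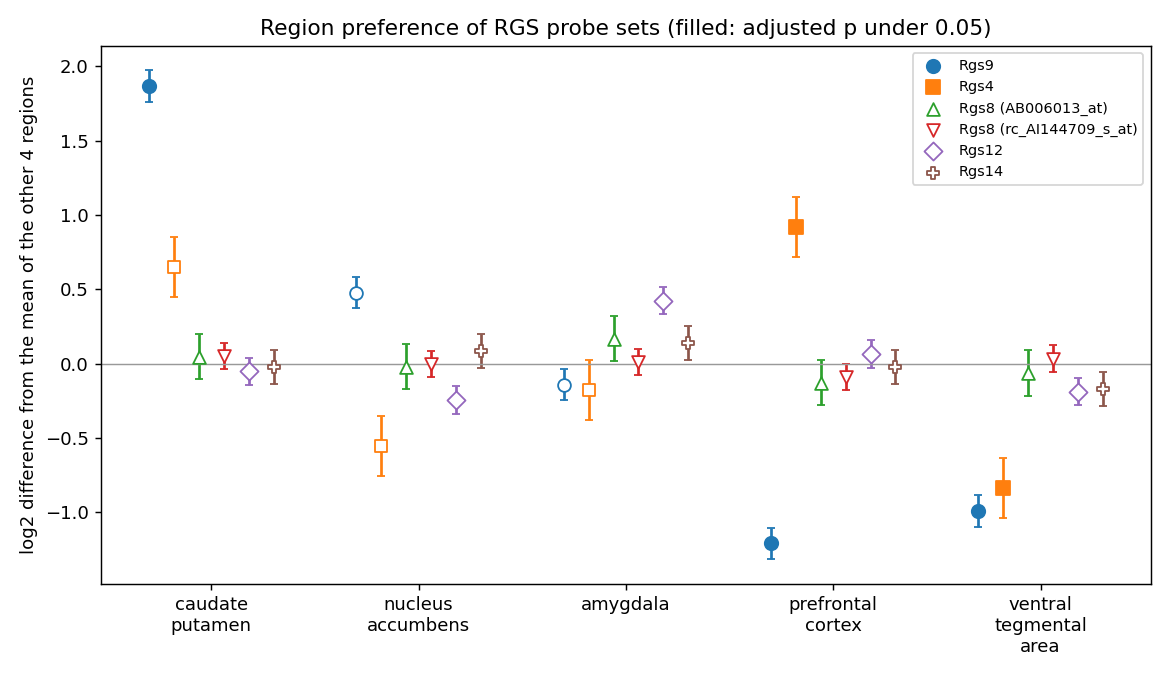
Log2 difference of each region from the mean of the other 4 regions for the 6 RGS probe sets, with SE bars from limma; filled symbols have an adjusted p under 0.05. Only Rgs9 and Rgs4 have filled symbols, Rgs9 at 1.87 in the caudate putamen and Rgs4 at 0.92 in the prefrontal cortex.

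The genes with the most similar profile were sought among 3028 other genes, by Pearson's r of log2 index over the 10 arrays. For Rgs9 they were Adora2a, the adenosine receptor of striatopallidal neurons, with r = 0.994, Drd2, the inhibitory dopamine receptor of the same neurons, with r = 0.989, and Ptpn5, the striatum-enriched tyrosine phosphatase, with r = 0.976. Adora2a stood at 11648 with cocaine and 12524 with saline in the caudate putamen and at 6613 and 6902 in the nucleus accumbens, and Drd2 at 4977 and 5405 and at 3210 and 3419. For Rgs4 the closest were the cell cycle gene Ccng1 with r = 0.886, the potassium channel gene Kcnt1 with r = 0.873 and the actin-binding Tmsb4x with r = 0.862. None of these 3 passed the region test (limma adjusted p = 0.135, 0.651 and 0.569). The arrays of a region share tissue, so these values describe likeness and carry no test.

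**Figure D3:**
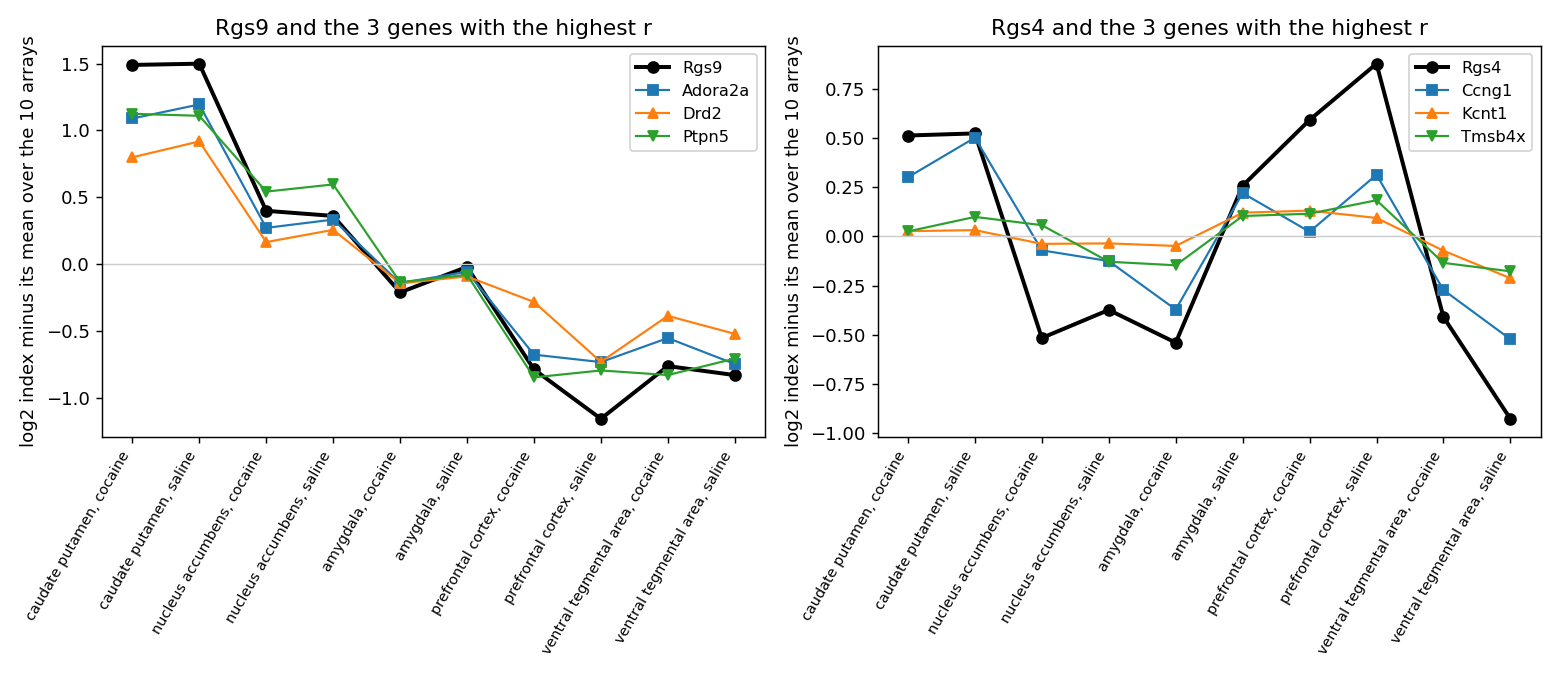
Log2 index minus its mean over the 10 arrays for Rgs9 (left) and Rgs4 (right), each with the 3 genes of highest r; arrays are ordered by region with cocaine before saline, and lines only join the points. Adora2a, Drd2 and Ptpn5 step down from caudate to accumbens to amygdala with Rgs9, while the genes nearest to Rgs4 span a narrower range than Rgs4 itself.

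Other genes of the pathway were taken from fixed lists. Of 23 further RGS genes and partners, 7 had a probe set and 4 were tested, namely Rgs19, Rgs22, Gnb5 and Axin1, and 0 passed the region test. Gnb5, the partner of Rgs9, was singled out after its values were seen. It stood at 6554 with cocaine and 7626 with saline in the caudate putamen and at 4627 and 5350 in the prefrontal cortex, and did not pass (limma adjusted p = 0.287). Of 16 tested G protein subunits 4 passed, where 9.25% of all tested probe sets did. Gnal, which couples striatal dopamine and adenosine receptors to adenylyl cyclase, was 2.60-fold higher in the nucleus accumbens and 2.38-fold higher in the caudate putamen than in the remaining regions on average (limma adjusted p = 0.00138 and 0.000638). Gng7, its gamma subunit in the striatum, was 2.10-fold higher in the caudate putamen (limma adjusted p = 0.000912). Gng10, another gamma subunit, was 1.32-fold lower in the prefrontal cortex, with an index of 3796 and 4147 with cocaine and saline (limma adjusted p = 0.0376). Gnas, the Gs alpha subunit, was lower in the caudate putamen, at 21571 and 20590, against 36842 to 45591 on the other arrays (limma adjusted p = 0.00167).

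Among 36 tested receptors, receptor kinases and arrestins 6 passed the region test, where 9.25% of all tested probe sets did. Taken by region, 4 of the 36 were higher in the caudate putamen, 4 lower in the prefrontal cortex and 6 lower in the ventral tegmental area, where 1.74%, 3.69% and 3.23% of all tested probe sets were. Drd1 was 4.81-fold and Adora2a 2.69-fold higher in the caudate putamen than elsewhere on average (limma adjusted p = 2.51e-05 and 0.000153), and the cannabinoid receptor Cnr1 3.11-fold (limma adjusted p = 0.0108). Gabbr2, a subunit of the GABA-B receptor, was 2.13-fold lower in the caudate putamen (limma adjusted p = 0.000837). It was 1.66-fold higher in the prefrontal cortex and 1.54-fold higher in the amygdala (limma adjusted p = 0.00672 and 0.0377). The list of effectors also held the peptide precursors Penk and Pdyn, and 4 of its 11 tested genes passed, against the same 9.25%. Among them, the enkephalin precursor Penk was 3.36-fold, the main striatal adenylyl cyclase Adcy5 1.62-fold, and the phosphodiesterase Pde1b 1.41-fold higher in the caudate putamen (limma adjusted p = 3.84e-05, 0.00413 and 0.0410). Plcb4, a phospholipase C, was 1.35-fold higher in the ventral tegmental area (limma adjusted p = 0.0178).

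Cocaine over saline was then compared across the 5 regions, with region as a block. None of the 6 RGS probe sets passed in limma, 0 had an unadjusted p under 0.05, and the smallest unadjusted p was 0.390. Over all 5244 probe sets 0% passed and 69 had an unadjusted p under 0.05. Rgs9 had a log2 change of 0.05 with a 95% interval of -0.14 to 0.25, Rgs12 of 0.07 with -0.10 to 0.24, and Rgs14 of 0.00 with -0.21 to 0.22. Rgs8 had 0.03 with -0.14 to 0.19 on rc_AI144709_s_at and -0.02 with -0.31 to 0.26 on AB006013_at. Rgs4 had the lowest value, -0.14 with the widest interval, -0.52 to 0.23. The median change of the members was 0.02, against -0.01 over all tested probe sets.

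Rgs4 had the largest ratio of the members in the amygdala and in the ventral tegmental area. In the amygdala it stood at 3815 with cocaine and 6639 with saline, 1.74-fold lower, the 1 of 30 member values that reached 1.5-fold. There, 7.47% of all tested probe sets were lower by as much, and over all regions and both directions 3.14% reached 1.5-fold. In the ventral tegmental area Rgs4 went the other way, with 4175 under cocaine and 2916 under saline, 1.43-fold higher. Its log2 ratios were -0.29 in the prefrontal cortex, -0.14 in the nucleus accumbens and -0.01 in the caudate putamen, so it was lower in 4 of 5 regions. Without the amygdala pair its change across the regions was 0.02. These ratios rest on 1 array against 1 and have no replicate check.

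Cell type markers differed in the same pairs of arrays. The sums below cover the markers of each list that were above 0 on both arrays of a region. In the amygdala, 7 excitatory neuron markers summed to 76916 with cocaine and 82739 with saline, with 4 of 7 lower, and 5 oligodendrocyte markers to 75098 and 84349, with 4 of 5 lower. The 4 endothelial and mural markers summed there to 7711 and 10574, with 3 of 4 lower. For dopamine neurons, 6 markers summed to 13799 and 16444, with 5 of 6 lower, leaving out Nr4a2, which was at 0 with cocaine. Among them, Th stood at 2599 and 2849 in the amygdala, against 2632 and 2739 in the caudate putamen. Slc18a2, at 592 and 910, was below the floor on both amygdala arrays. The same 6 markers summed to 15867.4 with cocaine and 13990.5 with saline in the prefrontal cortex. Whether the amygdala difference in these signals reflects dopamine neurons was not tested. The 3 choroid plexus markers summed to 38406 and 51804 in the amygdala and to 20265 and 46768 in the caudate putamen, with 2 of 3 lower in each. Several of these lists lay the other way in the ventral tegmental area. There the excitatory markers summed to 32016 with cocaine and 25869 with saline, with 2 of 7 lower, and the oligodendrocyte markers to 115159 and 99690, with 0 of 5 lower. Among the excitatory markers Cck had the widest gap, at 8504 and 4161. Nrgn, at 6768 and 7392, and Olfm1, at 4170 and 4454, were lower with cocaine. The endothelial and mural markers summed to 9624 and 7123 and the 7 dopamine neuron markers to 32493 and 25152, with 0 lower in both lists. Other lists did not follow. Microglia markers summed to 11984 with cocaine and 10680 with saline in the amygdala and to 10221 and 11926 in the ventral tegmental area. Cerebellar markers summed to 7070 and 5752, and to 7181 and 9773. Astrocyte markers summed to 43418 and 42430, and to 54852 and 53790, with 2 of 3 lower in each. Choroid plexus markers summed to 13340 and 14905 in the ventral tegmental area. Hypothalamic markers summed in the ventral tegmental area to 13186 with cocaine and 31135 with saline, with 3 of 3 lower. Most of this came from Hcrt, at 6808 and 23627, while Avp stood at 3576 and 4678 and Pomc at 2803 and 2830. Left out were Pmch, at 0 on both arrays, and Oxt, at 5087 with cocaine and 0 with saline. The part of these differences in the RGS ratios was not tested.

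By region, 5 of 6 RGS probe sets were lower with cocaine in the amygdala, with a median log2 ratio of -0.27 against -0.04 over all tested probe sets, of which 45.0% were higher. Rgs12 was the exception, at 4054 with cocaine and 3347 with saline. In the ventral tegmental area all 6 were higher, with a median of 0.16 against 0.03 over all tested probe sets, of which 57.5% were higher. The caudate putamen had 2 higher and 4 lower, and the accumbens and prefrontal cortex had 3 of each. Over all tested probe sets 40.8% were higher in the caudate putamen, 40.6% in the accumbens and 51.9% in the prefrontal cortex. Over the 5 regions together 15 values were higher and 15 lower.

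Rgs9 barely moved where it was most abundant, at a log2 ratio of -0.01 in the caudate and of 0.04 in the accumbens. Its largest ratio, 0.37, came from the prefrontal cortex, where it was lowest, with 2695 under cocaine and 2087 under saline. Rgs14 had its highest ratio in the caudate putamen, 0.23, with 7052 under cocaine and 6025 under saline, and its lowest in the amygdala, -0.34. For Rgs8, AB006013_at gave -0.57 in the amygdala and 0.31 in the prefrontal cortex, and rc_AI144709_s_at -0.12 and -0.04. The Rgs8 probe sets agreed in sign in 2 of 5 regions. Of the 30 member values 3 lay outside the middle 90% of tested probe sets of their region, namely Rgs4 in the amygdala and ventral tegmental area and Rgs14 in the caudate putamen. By construction the lowest 5% and the highest 5% of all tested probe sets lie outside as well, so 3 of 30 is no more than that share.

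**Figure D4:**
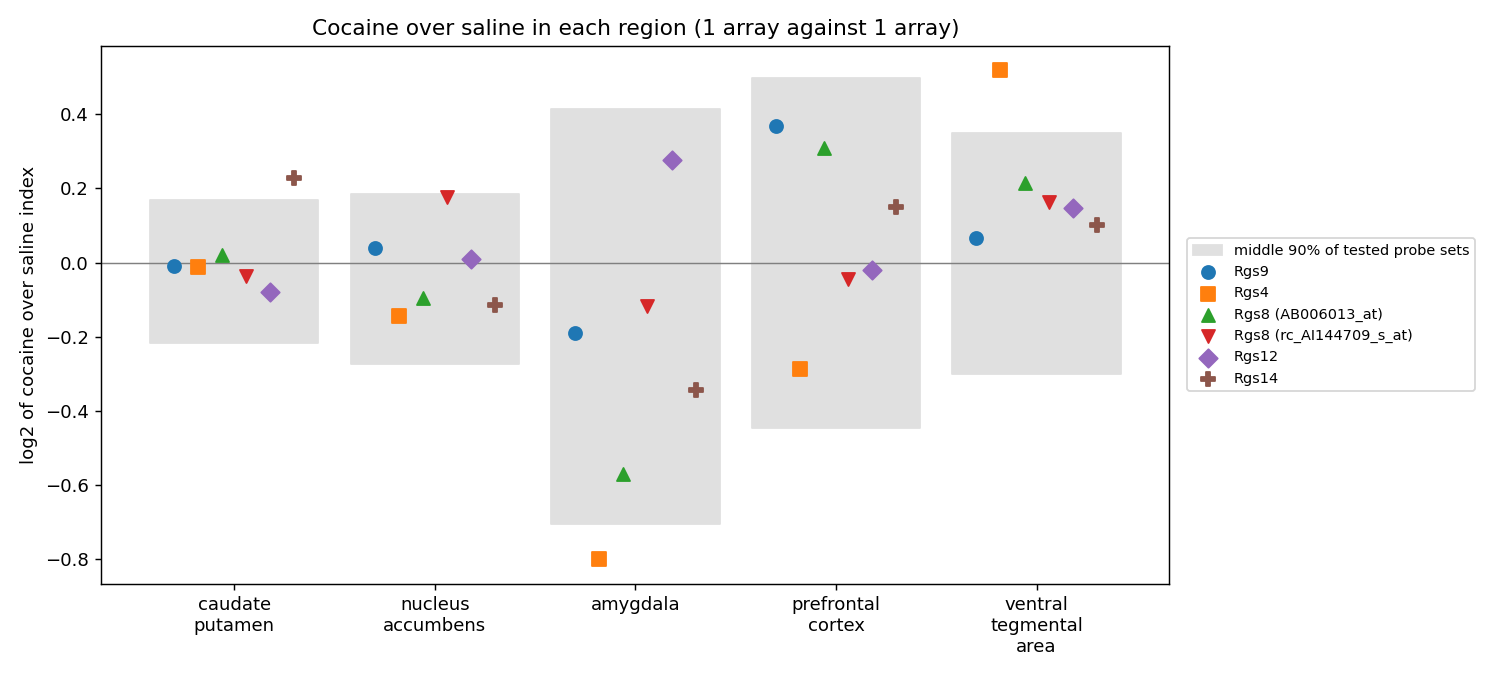
Log2 of the cocaine over the saline index for the 6 RGS probe sets in each region, 1 array against 1 array, with the middle 90% of all tested probe sets of that region as a grey band. Rgs4 is at -0.80 in the amygdala and 0.52 in the ventral tegmental area, both outside the band, and the points of the nucleus accumbens and prefrontal cortex all lie inside it.

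The interaction of treatment with region class asked whether the cocaine ratio differed between the striatal regions and the other 3. Of the 6 RGS probe sets 0 passed in limma, with a smallest unadjusted p of 0.307, and over all 5238 probe sets 0% passed and 17 had an unadjusted p under 0.05. In the pathway lists 0 of 67 tested genes passed for cocaine, and 0 had an unadjusted p under 0.05. The smallest p-values were those of Adra2c, an adrenergic receptor, with a log2 change of -0.11 ± 0.06, Penk, with -0.08 ± 0.06, Drd4, a dopamine receptor, with 0.09 ± 0.07, and Gnaz, a G protein subunit of the inhibitory family, with -0.07 ± 0.06 (SE, limma adjusted p = 0.9999 for each). Median changes were 0.02 for the other RGS genes and partners, -0.03 for G protein subunits, -0.00 for receptors and 0.01 for the effector list.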

How the data were processed

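Rat brain RNA was hybridised to single-colour oligonucleotide arrays. The authors deposited linear intensities, per the labels dChip's model-based index, whose version, model and scaling the sources used here do not give. Groups came from the sample titles. Of 8799 probe sets 59 controls were left out. The annotation table gave 1 symbol for 7006 of the rest, several for 308 and none for 1426. Exact zeros were treated as missing, values under the 20th percentile of values above 0 (1028) were raised to it, log2 was taken, and the upper 60% by mean index were tested. Models were fitted per probe set with region and treatment as terms (4 residual degrees of freedom) and moderated with an intensity trend in limma 3.58.1 (R 4.3.3); the interaction had 3. P-values were Benjamini-Hochberg adjusted over all tested probe sets at 0.05. The code was tested on simulated data. Named genes were the members, up to 4 list genes with the widest region range past the test, those with the smallest cocaine p, and the 3 most similar genes. Members, lists and the treatment of zeros were chosen with earlier results of these data known. The number of arrays limits the precision.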

Additional observations from a re-analysis of the deposited data

How the results depend on the processing

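The 0 calls for cocaine and for the interaction, and the 1 value of 1.5-fold, stood under every alternative run for them, among them median scaling, quantile normalization and, for cocaine, a fit without region as a block. Region calls depended more on the choices. Of the RGS probe sets, 2 passed the overall region test, 5 values passed against the other regions and 10 between pairs. With zeros raised to the floor these were 1, 3 and 6, and without a filter 1, 3 and 5, where more probe sets were tested. Without the caudate pair they were 1, 3 and 3, without the prefrontal pair 1, 3 and 6, and without the ventral tegmental pair 1, 2 and 5, where fewer comparisons exist. Rgs4 was still tested for a difference between regions in these 3 settings and did not pass (limma adjusted p = 0.116, 0.0923 and 0.0658). Without the accumbens pair 1 passed overall and 4 between pairs. Leaving out 1 array gave 1 to 3, 3 to 8 and 4 to 17, highest without the amygdala saline array and lowest between pairs without either accumbens array; without either caudate array they were 1, 3 and 6. The cause of these losses, and of the reversals given next, was not tested. The cocaine change of Rgs4 turned to 0.019 and that of Rgs8 (AB006013_at) to 0.11 without the amygdala pair, that of Rgs8 (rc_AI144709_s_at) to -0.0077 without the accumbens and -0.0046 without the ventral tegmental pair, that of Rgs9 to -0.024 without the prefrontal pair, and that of Rgs14 to -0.0024 under median scaling and -0.052, -0.033 and -0.020 without the caudate, prefrontal and ventral tegmental pairs. Leaving out 1 array gave ranges of -0.31 to 0.019 for Rgs4, -0.11 to 0.11 and -0.0077 to 0.066 for Rgs8, -0.024 to 0.12 for Rgs9, 0.014 (without an amygdala array) to 0.10 (without a caudate array) for Rgs12 and -0.052 to 0.091 for Rgs14. None of these changes passed in any of them.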
